A study of Mus musculus with 6 samples.

Results

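Clu, Ly6a, Ly6d, Ly6e, Anxa1, Anxa3 and Msln are 7 genes used as markers of fetal-like or regenerating gut epithelium. They were picked by name and found by matching the Ensembl identifiers of the count table to GENCODE symbols. All 7 were among the 24190 genes counted, and all 7 were among the 14692 genes with enough reads to be tested. Folfiri, a combination of the antimetabolite fluorouracil (5FU) and the irinotecan metabolite SN38, was compared with control medium, and the question was whether the markers moved together. They did not: 3 were higher after Folfiri (Anxa1, Anxa3 and Msln), 3 were lower (Clu, Ly6a and Ly6d) and Ly6e did not pass the test. Of all tested genes, 40.3% were called higher and 38.8% lower. Without control replicate 1, 2 markers were higher, Msln no longer passing, and 4 were lower, Ly6e now among them.

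The samples were bulk poly(A) RNA libraries from MTO54 mouse colorectal cancer organoids, labelled parental and AKP, which is their genotype label. Both arms carried the same genotype, and MTO54 is a single organoid line. Single cells were seeded in a basement membrane gel in complete stem cell medium. From day 2, 3 cultures received fresh complete medium (control) and 3 received the medium with 5FU, given in the labels as 50 μg/μl, and SN38 at 100 nM (Folfiri), for 2 days according to the labels. A figure legend of the study gives a longer treatment, and the labels were followed here. The study calls the replicates biological, but neither it nor the labels say whether they were separate cultures from the start, so the p-values cover only the spread between these samples.

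Fetal gut epithelium, and adult epithelium repairing injury, express a set of genes that is largely silent in resting crypts, while the Lgr5+ stem cell programme recedes. The set is linked to the transcriptional coactivator YAP, and cells in this state have been called revival stem cells when marked by Clu. Clu encodes clusterin, a secreted chaperone. Ly6a (Sca-1), Ly6d and Ly6e encode small three-finger proteins held at the cell surface by a glycosylphosphatidylinositol (GPI) anchor, as does Msln, which encodes mesothelin. Anxa1 and Anxa3 encode annexins, which bind membranes in the presence of calcium.

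Counts per library ranged from 22103591 to 30098210. Levels are CPM, counts divided by library size and scaled between libraries by TMM, a method that assumes most genes do not change. The test across genes was edgeR's quasi-likelihood test with Benjamini-Hochberg adjustment over all tested genes and a threshold of 0.05. The response was broad: 79.1% of the tested genes passed in either direction, and the median log2 fold change was 0.02. A call on its own therefore says little about any marker. Control replicate 1 stood apart from the other control libraries, with a chi-square per degree of freedom of 23.7 and 22.4 against them, compared with 3.84 between control replicates 2 and 3. Folfiri replicate 3 stood apart less, at 12.3 and 11.9 against 3.55 between Folfiri replicates 1 and 2, and no marker's call changed without it. Scaling by library totals without TMM put the all-gene median at 0.30, and every log2 fold change given here sits higher by about that much on that scale. Lgr5, the crypt stem cell marker, fell from 20.9 to 3.63 CPM (log2 fold change −2.52, SE 0.12, edgeR adjusted p = 3.81e-08), and Mki67, a marker of dividing cells, fell from 734.9 to 245.6 CPM (−1.58, SE 0.10, adjusted p = 1.72e-07).

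The 3 Ly6 markers lie close together on mouse chromosome 15 within a cluster of related genes, and the reads of close relatives can be hard to tell apart. The first 90 coding bases are shown to make that visible, read from GENCODE transcripts on GRCm38, 5′ to 3′ and with the span of the coding region. In the lines for Ly6c1, Ly6c2, Ly6g, Ly6i and Ly6f, capitals mark bases that differ from Ly6a at the same position. Ly6e and Ly6d are too different to compare position by position and are in lower case throughout.
Ly6a (chr15:74995265-74997604, minus strand): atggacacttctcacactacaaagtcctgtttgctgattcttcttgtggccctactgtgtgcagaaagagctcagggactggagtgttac
Ly6c1 (chr15:75044329-75048511, minus strand): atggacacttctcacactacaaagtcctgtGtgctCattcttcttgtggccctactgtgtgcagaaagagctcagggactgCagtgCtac
Ly6c2 (chr15:75108546-75111667, minus strand): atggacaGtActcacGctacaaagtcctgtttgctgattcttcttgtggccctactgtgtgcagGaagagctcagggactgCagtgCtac
Ly6g (chr15:75155645-75158736, plus strand): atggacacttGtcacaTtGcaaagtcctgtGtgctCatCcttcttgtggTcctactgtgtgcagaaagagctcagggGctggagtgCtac
Ly6i (chr15:74979917-74983059, minus strand): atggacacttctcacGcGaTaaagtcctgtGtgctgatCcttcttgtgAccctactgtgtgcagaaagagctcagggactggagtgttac
Ly6f (chr15:75268730-75271847, plus strand): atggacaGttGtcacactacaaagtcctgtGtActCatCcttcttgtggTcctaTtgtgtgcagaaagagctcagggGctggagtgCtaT
Ly6e (chr15:74957808-74958710, plus strand): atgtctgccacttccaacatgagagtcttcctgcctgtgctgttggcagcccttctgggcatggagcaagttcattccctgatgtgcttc
Ly6d (chr15:74762359-74763560, minus strand): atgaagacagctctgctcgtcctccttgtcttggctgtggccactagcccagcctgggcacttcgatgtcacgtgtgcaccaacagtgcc
Ly6c1 differed from Ly6a at 4 of these 90 bases, Ly6c2 and Ly6i at 6 each, Ly6g at 9 and Ly6f at 11. Over the whole coding sequence, aligned bases of Ly6a were identical to Ly6i at 86.3%, to Ly6f at 84.6%, to Ly6c2 at 83.5%, to Ly6g at 83.1% and to Ly6c1 at 77.6%. Ly6e (57.6%) and Ly6d (62.0%) were further away, as were Anxa1 and Anxa3 from each other (61.6%).

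Of all 50-base windows of Ly6a transcripts, 19.0% occurred unchanged in another gene, most of them in Ly6c1. The share fell to 6.33% for windows of 75 bases and 1.45% for windows of 100 bases. The read length and the counting of reads with several positions are not given in the sources used here, so some exchange of reads between Ly6a and Ly6c1 cannot be told apart from their own levels. Anxa3 shared 2.34% of its 50-base windows, all with Gm42603, a gene that overlaps 112 of its exonic bases and was not among the genes counted. No 50-base window of Clu, Ly6d, Ly6e, Anxa1 or Msln occurred in another gene.

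Clu, a secreted chaperone and the marker gene of revival stem cells, showed the largest change of the 7. Clu (ENSMUSG00000022037, chr14:65968483-65981547, plus strand, GRCm38) had 44.3, 58.8 and 58.5 CPM in control replicates 1, 2 and 3. After Folfiri it had 18.4, 20.2 and 20.7 CPM. Every Folfiri culture lay below every control culture, and control replicate 1 was the lowest of the controls. The mean fell from 53.9 ± 8.30 to 19.8 ± 1.22 CPM (SD, n = 3 each), 2.72-fold, or by 1.44 on the log2 scale (SE 0.12, edgeR adjusted p = 9.74e-07). Of all tested genes, 21.6% changed by at least as much in either direction. In bulk RNA, fewer cells that express a gene and less RNA per cell cannot be told apart, here and for the other markers.

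Ly6a, the surface antigen Sca-1, was one of the most abundant transcripts of these organoids. Ly6a (ENSMUSG00000075602, chr15:74994877-74998031, minus strand) had 1968, 2517 and 2365 CPM in the controls. The Folfiri cultures had 1552, 1415 and 1563 CPM. The groups did not overlap, which held for 39.9% of all tested genes in this direction and 81.4% in either. Ly6a fell 1.51-fold, which is −0.60 on the log2 scale (SE 0.11, edgeR adjusted p = 0.000497). Scaled by exonic length, so that genes can be compared, its level was 1895 CPM per kb in controls and 1253 after Folfiri, which placed it 10th and 20th among 14687 genes.

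Ly6d, which marks early B-lineage cells in bone marrow and is also found in stratified epithelium, was much less abundant. Ly6d (ENSMUSG00000034634, chr15:74762056-74763620, minus strand) had 38.3, 50.8 and 50.8 CPM in the controls. It had 26.7, 23.5 and 27.5 CPM after Folfiri. The Folfiri cultures again lay below all controls, and the level fell 1.80-fold (log2 fold change −0.85, SE 0.12, edgeR adjusted p = 6.04e-05). Per kb of exon, Ly6d went from 62.7 to 34.8 CPM.

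Ly6e, an interferon-inducible member of the family, moved least. Ly6e (ENSMUSG00000022587, chr15:74955051-74959905, plus strand) had 1900, 2112 and 1992 CPM in the controls. After Folfiri it had 1787, 1727 and 1897 CPM. The Folfiri cultures were below the controls, with a gap between the nearest values of only a few CPM. The log2 fold change was −0.15 (SE 0.09, edgeR adjusted p = 0.155), so no difference was called. Without control replicate 1 the adjusted p was 0.0148 with a log2 fold change of −0.18, and on total counts only the sign turned, to 0.13.

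Anxa1, a phospholipid-binding protein that damps inflammation through formyl peptide receptors, rose. Anxa1 (ENSMUSG00000024659, chr19:20373428-20390944, minus strand) had 1391, 1540 and 1533 CPM in the controls. It had 2068, 1981 and 2081 CPM after Folfiri. All Folfiri cultures lay above all controls, as for 41.6% of tested genes in this direction. Anxa1 was 1.37-fold higher, or 0.46 on the log2 scale (SE 0.09, edgeR adjusted p = 0.000709). Per kb of exon it went from 511 to 702 CPM, and from the 155th to the 38th place among the 14687 genes.

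Anxa3, its relative on chromosome 5, changed by a similar amount. Anxa3 (ENSMUSG00000029484, chr5:96793339-96845966, plus strand) had 344, 334 and 333 CPM in the controls. It had 444, 430 and 456 CPM after Folfiri. The groups did not overlap, and the controls differed among themselves by little (337.0 ± 5.90 CPM, SD, n = 3). Anxa3 was 1.32-fold higher (log2 fold change 0.40, SE 0.07, edgeR adjusted p = 0.000343). Changes at least as large were common, at 71.4% of tested genes for Anxa3 and 67.3% for Anxa1.

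Msln, the GPI-anchored glycoprotein mesothelin, had the highest adjusted p of the 6 calls. Msln (ENSMUSG00000063011, chr17:25748613-25754378, minus strand) had 97.7, 118 and 104 CPM in the controls. It had 141, 116 and 122 CPM after Folfiri. The groups overlapped, since control replicate 2 lay above Folfiri replicate 2, and Folfiri replicate 1 was the highest of all. The log2 fold change was 0.25 (SE 0.09, edgeR adjusted p = 0.0328). The call was lost without control replicate 1 (adjusted p = 0.0585), without control replicate 3 (0.0968) and without Folfiri replicate 1 (0.156).

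**Figure D1:**
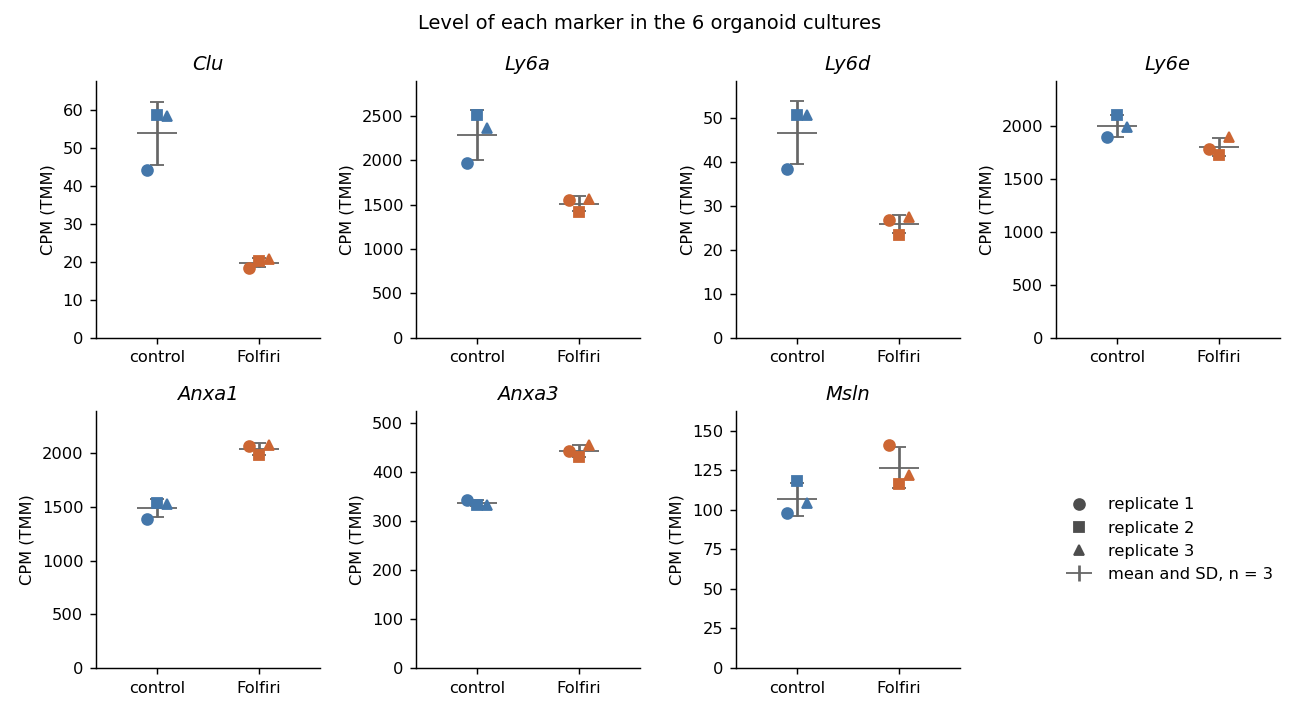
CPM after TMM scaling of each marker in the 3 control (blue) and 3 Folfiri (orange) cultures, with a separate axis from 0 for each gene; symbols give the replicate number, and horizontal marks and bars give the mean and SD (n = 3). Clu, Ly6a and Ly6d sit lower after Folfiri, Anxa1 and Anxa3 sit higher, Ly6e is nearly level, and the groups of Msln overlap.

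The plot of levels by culture shows the split among the markers. With 3 of 7 called higher and 3 of 7 called lower, neither share stood far from the 40.3% and 38.8% of all tested genes, and the median log2 fold change of the 7 was −0.15. On total counts only, the same 3 were higher and the same 3 were lower, but the median was 0.13. The calls for Clu, Ly6a, Ly6d, Anxa1 and Anxa3 were the same in all 14 alternative settings tried for each. The order by level per kb of exon in controls was Ly6a, Ly6e, Anxa1, Anxa3, Ly6d, Msln and Clu. Ly6e (529 ± 28.0 CPM per kb) and Anxa1 (511 ± 28.8) did not differ beyond their spread there. After Folfiri, Anxa1 (702 ± 18.6) stood above Ly6e (477 ± 22.8), and Msln (41.3 ± 4.25) above Ly6d (34.8 ± 2.84). Clu came last in both arms, at 15.7 and 5.75 CPM per kb.

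**Figure D2:**
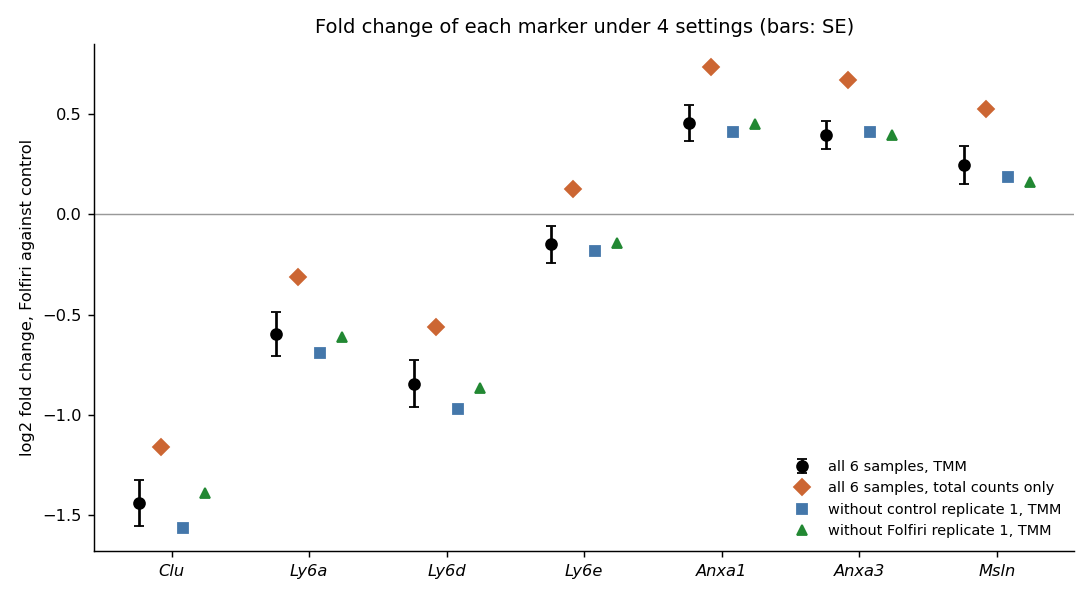
Log2 fold change of each marker, Folfiri against control, in the fit of all 6 samples with TMM (black, bars are SE), on total counts only (orange), and without control replicate 1 (blue) or Folfiri replicate 1 (green). Clu, Ly6a and Ly6d stay below 0 and Anxa1, Anxa3 and Msln stay above it in the 4 settings, whereas Ly6e crosses 0 on total counts only.

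Ratios of markers within a library do not depend on the scaling between libraries, and 5 pairs were compared by a two-sided exact permutation test, which cannot go below p = 0.1 with 3 samples against 3. For Ly6a over Ly6e, the log2 ratio per kb of exon was 1.70, 1.90 and 1.90 in the controls. It was 1.45, 1.36 and 1.37 after Folfiri. Every Folfiri ratio lay below every control ratio, with a difference of −0.44 (exact permutation p = 0.1, adjusted over the 5 pairs 0.125). Ly6d over Ly6e differed by −0.69 and Ly6a over Ly6d by 0.25, each with the same p. The groups did not overlap for any of these Ly6 pairs, although the design cannot pass a threshold of 0.05. Clu over Anxa1 had the widest difference, −1.89 (p = 0.1, exact permutation test). Anxa1 over Anxa3 differed by 0.06 (p = 0.5, exact permutation test) and its control values were 2.34, 2.53 and 2.52. The Folfiri values were 2.54, 2.53 and 2.51. The groups overlapped for this pair alone.

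The likeness of profiles was measured as the root mean square difference, over the 6 samples, of log2 CPM centred on each gene's own mean. Among the markers it was smallest for Anxa1 and Anxa3 (0.07), then for Ly6a and Ly6d (0.13) and for Anxa1 and Msln (0.14). It was largest for Clu and Anxa1 (0.95). When 9474 genes averaging 10 CPM or more were searched, the profile most like that of Anxa1 was Cwh43 (0.01), and the profile most like that of Anxa3 was Frmd4b (0.02). For Clu the closest were Prkra, Pgrmc2 and Rab9, and for Ly6a Rpl19-ps9 and Cnn2 were among the closest. For Ly6d they were Prdx5, Higd2a and Rps19-ps7. Msln had no gene as close, with Rab3a nearest at 0.06.

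The wider LY6 and uPAR family shares the three-finger fold. Of 34 listed family genes counted, 23 were tested, Ly6a, Ly6d and Ly6e included, with 4 higher and 13 lower, against 40.3% and 38.8% of all tested genes. The median log2 fold change was −0.60 against 0.02 for all genes. Ly6f fell from 25.5 to 2.67 CPM (log2 fold change −3.25, SE 0.14, edgeR adjusted p = 1.27e-08). Lypd2 fell from 119 to 34.1 CPM (−1.81, SE 0.12, adjusted p = 3.08e-07). Ly6g6d and Ly6g6e, from a separate cluster, fell by 1.95 and 1.61 on the log2 scale. Plaur, the urokinase receptor and itself a regeneration marker, rose from 36.3 to 70.4 CPM (0.96, SE 0.07, adjusted p = 6.36e-07). Ly6g6c rose from 1.71 to 4.20 CPM, and the other higher genes, Lypd5 and Lypd6, were below 1 CPM in both groups. They and Lypd1 reached the minimum count for testing through Folfiri alone, and of the other 20 genes 2 were higher and 13 lower. The list missed 4 relatives, described with the chromosome 15 cluster, and with them 7 of 27 tested were higher and 14 lower, with a median of −0.53.

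The close relatives of Ly6a on chromosome 15 fell as well. Ly6c1 went from 1842 to 1084 CPM (log2 fold change −0.77), Ly6g from 1130 to 519 CPM (−1.12) and Ly6c2 from 764 to 316 CPM (−1.27), while Ly6i went from 22.5 to 15.5 CPM (−0.53). Larger shares of the 50-base windows of Ly6c1 and Ly6c2 than of Ly6a occurred in another gene, 32.8% and 31.2%, so their separate values are uncertain. Ly6a made up 35.1% ± 0.262 of the listed family's mRNA per kb in controls and 38.5% ± 0.167 after Folfiri (SD, n = 3), and Ly6e made up 9.88% ± 0.884 and 14.7% ± 0.451. The family sum per kb fell from 5395 ± 703 to 3251 ± 165 CPM.

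Within 500 kb of the chromosome 15 markers, 12 listed family genes were tested, of which 9 were lower, against 38.8% of all tested genes. Ly6e, Psca and Lynx1 did not pass the test. The window also held 4 tested relatives that the symbol match or the list had missed, noted after the values were seen: Gml, Gml2, 2010109I03Rik (Ly6m in RefSeq) and BC025446, which ends at the same base as Ly6g2 of RefSeq. Gml, Gml2 and BC025446 were higher, and 2010109I03Rik was lower. Of all 16 family genes of the window, 3 were therefore higher and 10 lower, with a median log2 fold change of −0.68. Gml had 0.141 and 1.57 CPM and Gml2 had 0.120 and 1.03 CPM, so that both reached the minimum count only through Folfiri. BC025446 rose from 22.4 to 42.4 CPM. Of the remaining tested genes, Jrk was higher and Arc and Them6 were lower.

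**Figure D3:**
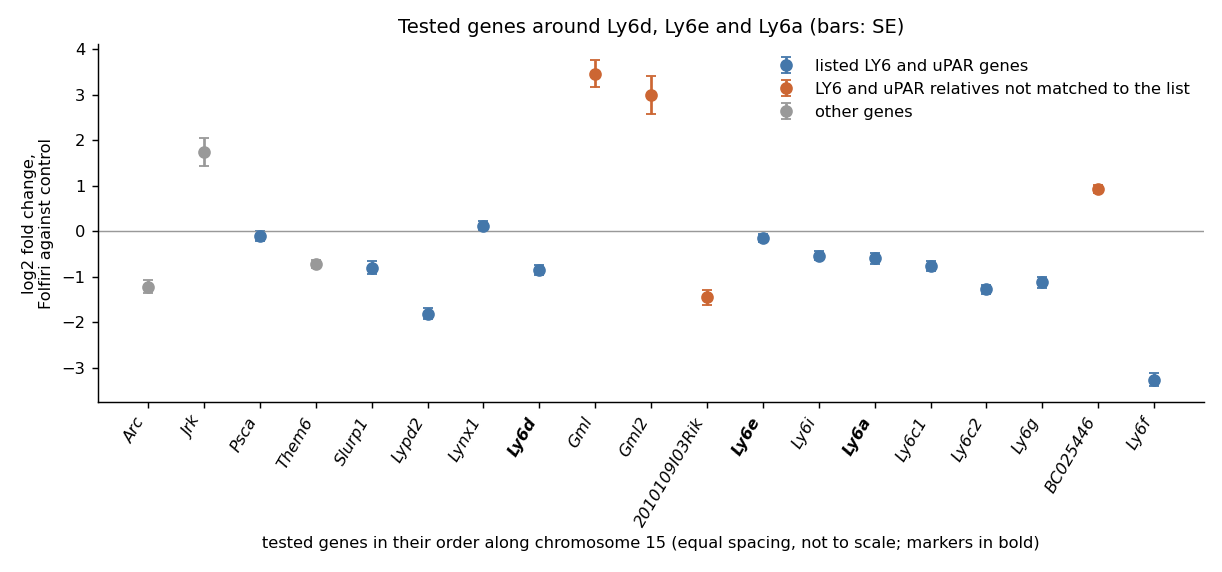
Log2 fold change (Folfiri against control, bars are SE) of the 19 tested genes within 500 kb of Ly6d, Ly6e and Ly6a, in their order on chromosome 15 with equal spacing. Listed family genes (blue) run from 0.12 for Lynx1 down to −3.25 for Ly6f, the 4 relatives missed by the list (orange) lie on both sides, up to 3.46 for Gml, and grey points are the other genes.

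The GPI anchor that Ly6a, Ly6d, Ly6e and mesothelin share is built by a set of enzymes in the endoplasmic reticulum. Of 30 genes of anchor assembly and remodelling, 9 were higher and 13 lower, against 40.3% and 38.8% of all tested genes, with a median of −0.20. On total counts only, where a larger part of the calls over all tested genes was higher, 12 were higher and 10 lower and the median was 0.08. Pigz reached the minimum count through Folfiri alone, and of the other 29 genes 8 were higher and 13 lower. Piga, which encodes the catalytic subunit of the first step, fell from 58.2 to 17.9 CPM (log2 fold change −1.70), while Pigh, a partner in the same complex, rose from 6.29 to 20.0 CPM (1.66). Pigt of the transamidase that attaches the anchor fell by 1.02 on the log2 scale. Of 17 other tested genes listed as GPI-anchored, 3 were higher and 8 lower, against the same shares. Gpc3 reached the minimum count through Folfiri alone and Gpc6 through control alone, and of the other 15 genes 2 were higher and 7 lower. Cdh13 had the largest fall (68.7 to 5.01 CPM). Hyal2 rose from 15.2 to 32.9 CPM, and Ceacam1, a cell adhesion molecule whose main forms are transmembrane, from 452 to 716 CPM.

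Among annexins, Anxa1 and Anxa3 rose while Anxa2 and Anxa4 fell. Of 11 tested annexins, 3 were higher (Anxa1, Anxa3 and Anxa10, the last below 1 CPM), 4 were lower and the median log2 fold change was 0.07. Both counts are shares below the 40.3% and 38.8% of all tested genes. Anxa10 reached the minimum count through Folfiri alone, and over the other 10 annexins 2 were higher, 4 were lower and the median was −0.034. Without control replicate 1 the median of the 11 was 0.022. On total counts only, where a larger part of the calls over all tested genes was higher, 6 were higher and 2 lower. Anxa4 fell from 1637 ± 76.8 to 208 ± 16.3 CPM (log2 fold change −2.98, SE 0.10, edgeR adjusted p = 3.18e-09). Anxa2, the best known partner of S100a10, fell from 1788 to 856 CPM (−1.06, SE 0.10, adjusted p = 2.29e-06). Anxa11 (−0.35) and Anxa7 (−0.30) fell by less, and Anxa5, Anxa6, Anxa8 and Anxa9 were not called.

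The makeup of annexin mRNA therefore differed between the arms. Per kb of exon, Anxa1 was 29.7% ± 0.312 of all annexin mRNA in controls and 51.4% ± 0.0974 after Folfiri (SD, n = 3). Anxa3 went from 5.40% ± 0.394 to 8.91% ± 0.106. Anxa4 went from 20.5% ± 0.213 to 3.28% ± 0.246, and Anxa2 from 27.8% ± 1.04 to 16.8% ± 0.305. The groups did not overlap in any of these shares. Transcripts of the S100 proteins that bind annexins were higher in 4 of 4 cases, against 40.3% of all tested genes. S100a6 had 742 and 1161 CPM, S100a11 had 484 and 703 CPM, S100a10 had 311 and 381 CPM, and S100a4 was below 1 CPM. S100a4 reached the minimum count through Folfiri alone.

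**Figure D4:**
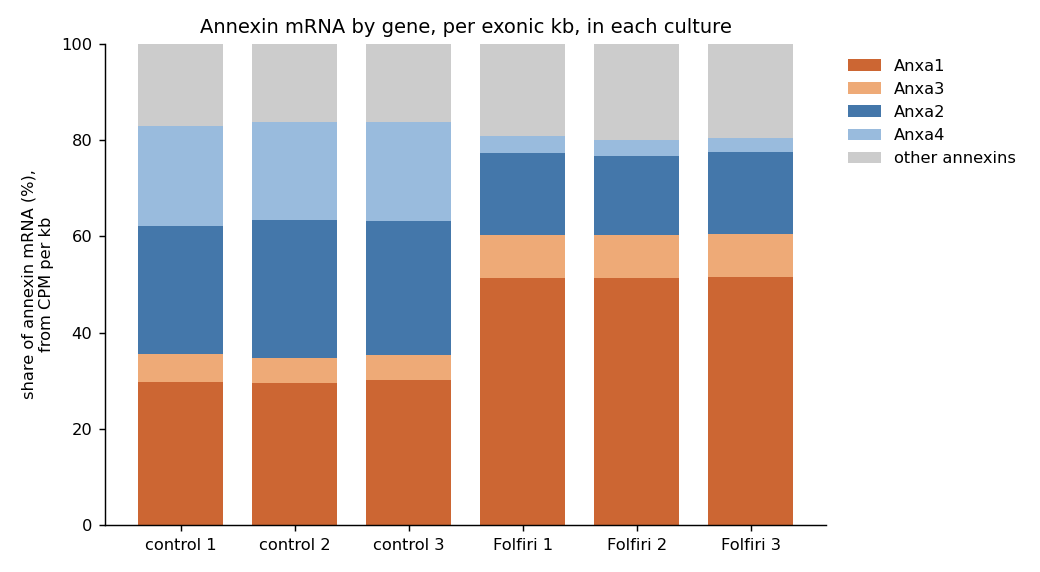
Share of annexin mRNA (percent, from CPM per exonic kb) taken by Anxa1, Anxa3, Anxa2, Anxa4 and the other annexins in each culture. Anxa1 is near 29.7% in the control bars and 51.4% in the Folfiri bars, and Anxa4 shrinks from 20.5% to 3.28%.

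Transcripts of receptors and ligands of the marker proteins were measured too. Lrp8 and Vldlr, lipoprotein receptors that bind clusterin, went from 59.9 to 19.6 CPM (log2 fold change −1.62, edgeR adjusted p = 5.47e-08) and from 256 to 64.2 CPM (adjusted p = 1.14e-08). Lrp1, a broad endocytic receptor, went from 19.7 to 4.02 CPM. Muc16, the mucin that binds mesothelin, had 0.162 and 0.686 CPM, and Mslnl, the gene next to Msln, had 0.114 and 0.714 CPM. Fpr1, a receptor for annexin A1, was near 0 in both arms.

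Clu was also set beside other chaperones of the secretory route and genes listed as inhibitors of complement or clotting. Of 13 chaperones, Clu included, 12 were lower and 1 was higher, against 38.8% and 40.3% of all tested genes, with a median of −0.87. Hsp90b1 (863 to 272 CPM, log2 fold change −1.66), Sdf2l1 (38.9 to 11.5 CPM, −1.76) and Pdia4 (219 to 80.6 CPM, −1.44) fell about as far as Clu, and Hyou1 rose by 0.28. Of 5 tested genes listed as complement and clot inhibitors, 3 were higher and 1 lower, against 40.3% and 38.8% of all tested genes. C1qbp, which held most of the list's CPM, rose from 127 to 193 CPM. Cd46, below 1 CPM in both groups, had 0.126 and 0.374 CPM and reached the minimum count through Folfiri alone. Of the other 4 genes, 2 were higher and 1 lower.

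Genes inducible by interferon were examined because Ly6a and Ly6e belong among them in many tissues. Of 13 tested, 8 were higher and 2 lower, against 40.3% and 38.8% of all tested genes, with a median of 1.09. Gbp2, Gbp3 and Isg15 reached the minimum count through Folfiri alone, and of the other 10 genes 5 were higher and 2 lower, with a median of 0.57. Gbp2 had 0.0874 and 4.08 CPM, Gbp3 had 0.338 and 3.59 CPM, and Cxcl10 rose from 1.38 to 4.69 CPM. Stat2 fell from 28.8 to 16.0 CPM. Ly6a was lower and Ly6e was not called in the same libraries.

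Further markers of fetal-like or regenerating epithelium also went both ways. Of 16 tested, 8 were higher, 3 were lower and 5 were not called, against 40.3% higher and 38.8% lower among all tested genes, with a median log2 fold change of 0.48. That median was 0.25 without Gja1, which reached the minimum count through Folfiri alone, 0.26 with a filter of 1 CPM in 3 samples and 0.73 without control replicate 1. Il1rn, which encodes the interleukin 1 receptor antagonist, rose from 55.3 to 230.9 CPM (2.06, SE 0.07, edgeR adjusted p = 4.48e-09). Il33, an alarmin, rose from 11.3 to 38.7 CPM (1.78), Basp1 from 3.17 to 10.7 CPM (1.77) and the growth factor gene Ereg from 9.18 to 29.0 CPM (1.65). F3, which encodes tissue factor, fell from 69.1 to 41.2 CPM (−0.75), and Sprr1a from 35.2 to 20.9 CPM (−0.75).

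**Figure D5:**
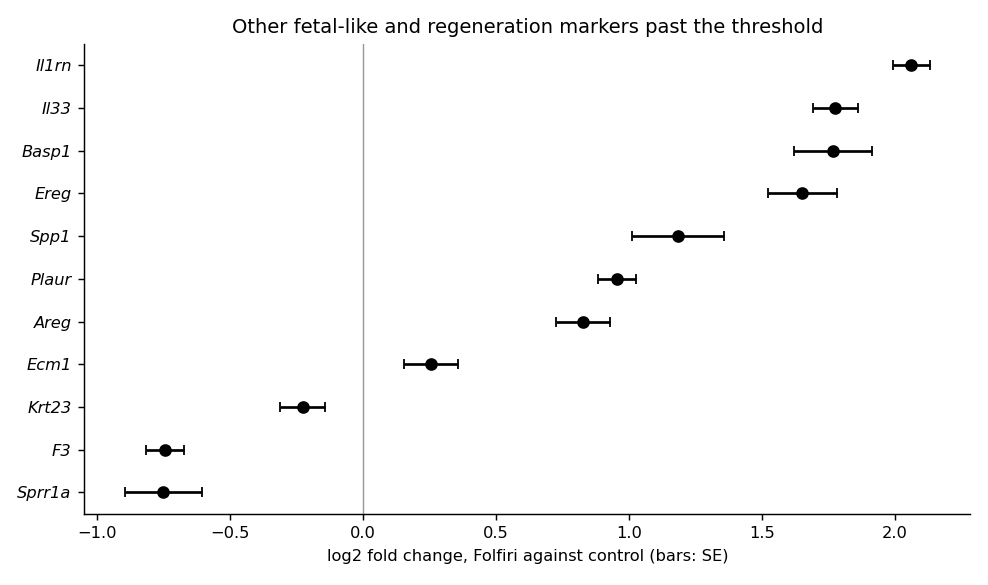
Log2 fold change (Folfiri against control, bars are SE) of the 11 other fetal-like and regeneration markers that passed edgeR's test. Il1rn is the highest at 2.06 and Sprr1a and F3 are the lowest at −0.75.

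The nearest tested protein-coding genes on each side of the markers did not follow a single pattern. Around Clu, Ccdc25 at 101876 bases and Adam2 at 45782 bases had log2 fold changes of 0.25 and 0.63, opposite in sign to Clu. Adam2 was low (1.51 and 2.36 CPM) and its groups overlapped. Aldh1a1, the nearest tested gene on one side of Anxa1 at 101771 bases, rose by 1.41, and Trpm6, the nearest on the other but 1480917 bases away, by 4.24 from 0.241 CPM. Bmp2k, 151723 bases from Anxa3, fell by 0.53, and Fras1, on the other side of Anxa3 at 8611 bases, was not called. Narfl beside Msln rose by 1.22. In the RefSeq promoter table (GRCm38.p6, 250 bases before to 50 after the start), only 1 of the 7 markers had an entry. The Anxa1 window lies inside the gene's GENCODE span, and GENCODE annotates part of it as untranslated exon. Both strands of the window were searched. It held the TEAD letters GGAATG once, letters found in 14.7% of 32851 promoters, and no match to the AP-1 letters TGANTCA, the STAT letters TTCNNNGAA or an interferon element.

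Markers of the labelled tissue were present, and those of other cell types were checked because Msln, Ly6a and Ly6d also mark cells outside the gut epithelium. The 12 epithelial genes summed to 6253 to 7262 CPM in controls and 4990 to 5192 CPM after Folfiri, with 7 of 11 tested lower and 1 higher. For this list and the next ones, 40.3% of all tested genes were higher and 38.8% lower. The 11 mesothelial genes summed to 3.34 to 3.64 CPM and 6.13 to 6.46 CPM, with Wt1 and Calb2 at or near 0. Of 5 tested, 2 were higher and 1 lower. Those higher were Krt5 (0.679 to 2.81 CPM), a keratin gene that made up most of the rise, and Muc16 (0.162 to 0.686). The 14 immune genes, of which 12 were counted, summed to 22.9 to 27.3 and 31.6 to 33.0 CPM. Cd68, which was not called, made up most of both sums (23.6 and 20.5 CPM). Of the 5 tested immune genes 4 were higher, and Lyz2 and Tyrobp were at or near 0. The higher ones were S100a8 (0.912 to 5.21 CPM), S100a9 (0.304 to 4.37), Ptprc (0.396 to 1.06) and Fcer1g (0.0819 to 0.537). The latter 3 reached the minimum count through Folfiri alone, as did Muc16, Pecam1, Esam, Dcn and Pdgfra of the other lists, while Lrrn4 and Col1a1 did so through control alone. Leaving such genes out, 1 of 3 mesothelial genes was higher (Krt5) and 1 of 2 immune genes was higher (S100a8). Likewise, 3 of 4 endothelial genes were lower and the 1 fibroblast gene left, Fn1, was lower. Endothelial genes summed to 160 to 216 and 90.3 to 103 CPM (3 of 6 tested lower, 1 higher), mostly from Cdh5 and Flt1, with Kdr at or near 0. Fibroblast genes summed to 48.2 to 53.7 and 33.0 to 36.8 CPM (2 of 4 higher, 2 lower), nearly all from Fn1, with Col3a1 at or near 0. The part of such cells in the marker changes was not tested.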

How the data were processed

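RNA sequencing was performed on 3 control and 3 Folfiri cultures of MTO54 organoids. Per the labels and the study's methods, the authors aligned reads with STAR 2.5.2 to the mouse genome (GRCm38), sorted them with Sambamba, and deposited raw read counts per gene from Rsubread with a GENCODE annotation. The library kit does not mark strand. Symbols and exonic lengths came from GENCODE vM21 on the same build (24168 of 24190 identifiers matched). The members and gene lists were chosen with earlier results of these data known.

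From the counts, edgeR 4.0.16 in R 4.3.3 was run with its default expression filter (minimum count 10), TMM and the quasi-likelihood test over 14692 genes, and was tested on simulated counts. SE values are on the log2 scale. Log2 CPM for likeness used a prior count of 2, and pair ratios a pseudocount of 0.5 counts. DESeq2 1.42.0, limma 3.58.1 (voom), other scalings and filters, a replicate block and leaving out each sample were alternatives. Named genes were the 7 markers, up to 4 called genes per list and direction with the largest change, non-overlapping groups and at least 1 CPM in a group, plus ligands, receptors, relatives, neighbours, the 3 most alike profiles, Lgr5 and Mki67; uncalled genes, those below 1 CPM and the genes of the Ly6 window that are not on the list were named after their values were seen. Sequences were compared with Biopython 1.88. A few items are not reported here. Precision is limited by 3 samples per arm, and counts cover counting error only.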

Additional observations from a re-analysis of the deposited data

How the results depend on the processing

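Alternative settings left the direction and call of Clu, Ly6a, Ly6d, Anxa1 and Anxa3 as reported, and the log2 fold change of Clu ranged from −1.57 to −1.16. The median of all genes was 0.30 on total counts only, 0.27 with no filter on low counts and 0.30 by DESeq2, and total counts raised the share of calls that are higher from 51.0% to 63.3%. On total counts only, Ly6e was at 0.13 and the median of the 7 markers was 0.13, the LY6 and uPAR family median was −0.31, 6 annexins were higher and 2 lower with a median of 0.35, and the median of the other fetal markers was 0.76. With 4 relatives missed by the list, an alternative chosen after seeing the data, 7 LY6 and uPAR genes were higher. With no filter, 8 were higher (2 at a minimum of 1 CPM in 3 samples), that family's median was −0.33 (−0.38 by DESeq2), and the other fetal markers had a median of 0.68 (0.26 at 1 CPM, 0.56 by DESeq2). These settings test other sets of genes. The annexin median was 0.13 with upper quartile scaling and −0.026 at 1 CPM. When each sample was left out in turn, it ranged from 0.022 (without control replicate 1) to 0.10, and the median of the other fetal markers from 0.39 (without control replicate 2) to 0.73 (without control replicate 1). Unless a value above shows otherwise, the cause was not tested. Replicate numbers did not pair the samples (correlations of same-numbered deviations 0.03, −0.12 and 0.04). With a replicate block, 11499 genes were called in place of 11623 and no marker's call changed (Ly6e adjusted p = 0.236, Msln 0.0352 by edgeR). Each of the 7 markers had at least 549 counts in every library.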
